A study of Mus musculus with 12 samples.

Results

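Fibroblast growth factor (FGF) signalling was examined in cartilage through 10 genes, the ligands Fgf1, Fgf2, Fgf7 and Fgf18, the receptors Fgfr1, Fgfr2, Fgfr3 and Fgfr4, and the feedback inhibitors Spry2 and Dusp6. Every probe whose gene symbol was one of these names was taken, which gave 18 of the 46632 probes on the array. The RNA came from femoral head cartilage explants of 21-day-old TS-4/5∆cat mice, in which the exons for the catalytic domains of both Adamts4 and Adamts5 are deleted in frame. All 12 arrays carried this deletion, and no wildtype arrays were analysed here. Explants, 4 hips per well, were left untreated or were treated for 3 days with 10 ng/mL IL-1α, an inflammatory cytokine, or with 10 µM retinoic acid, the active form of vitamin A. In earlier work cited by the paper, both concentrations gave maximal loss of aggrecan, the main proteoglycan of cartilage, from explants. In cartilage with this deletion, the paper reports that retinoic acid, and not IL-1α, stimulated the aggrecan-cleaving activity that remained. Each treatment had 4 arrays, 2 in batch 1 from the Donut line and 2 in batch 2 from the Gertrude line. Line and batch therefore cannot be told apart. The labels give medium with serum for the 24 h before treatment, whereas the methods describe serum-free culture. The methods describe 3 separate, unpooled mice for each treatment, the sample labels speak of triplicates and the series design of duplicates, and the arrays number 4 per treatment. No source used here says which array came from which mouse or well, so that p-values measure the spread between these arrays, which may be technical.

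FGFs are secreted ligands that bind receptor tyrosine kinases on the cell surface, usually together with heparan sulphate, and activate ERK kinases and other pathways inside the cell. In the growth plate, FGFR3 restrains the proliferation of chondrocytes, partly through inhibitors of the cell cycle, and activating mutations in FGFR3 cause achondroplasia. FGF18 acts on cartilage through FGFR3 and has been studied as an anabolic factor for articular cartilage. Sprouty proteins such as SPRY2 and phosphatases such as DUSP6 are induced by ERK signalling and dampen it.

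The 12 arrays had raw median intensities between 34.3 and 63.3, and the number of probes detected ranged from 13786 to 14965 in batch 1 and from 16732 to 19485 in batch 2. Between arrays of the same treatment the correlation over all probes kept was 0.983 to 0.995 within a batch and 0.868 to 0.902 across batches. Genes known to respond to each agent were checked. Cyp26b1, which breaks down retinoic acid, was higher by 3.94 on the log2 scale with retinoic acid (adjusted p = 6.07e-10), and Nos2, which makes nitric oxide, was at least 14.1-fold higher with IL-1α, being undetected on the untreated arrays. Of the 10 chondrocyte markers on the array, 9 were detected on at least 1 untreated array and Matn3 on 0 of the 12 arrays.

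Of the 18 probes, 12 probes for 7 genes were detected (detection p under 0.05) on at least 4 arrays and were tested. The probes for Fgf7, Fgfr4 and Spry2, 1 for each gene, were detected on 0 arrays, as were the second Fgf1 probe (ILMN_2721110) and 1 of the 4 Fgfr2 probes (ILMN_1229167). The second Fgf18 probe (ILMN_2764004) was detected on 1 array, of retinoic acid in batch 2. At this sensitivity no statement can be made on treatment effects for Fgf7, a ligand made by mesenchymal cells that acts on a splice form of FGFR2, for Fgfr4 or for Spry2. Values below are log2 intensities after background correction and quantile normalization, and because probes differ in how strongly they bind, a level on one probe is not set against a level on another.

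The results turned mainly on Fgfr3, Fgfr2 and Fgf1. The brightest probe of each receptor was lower with retinoic acid, although 1 of the 3 Fgfr2 probes tested was higher, and the regions around their transcription start sites are shown for these genes. The sequences are those of RefSeq on build GRCm38.p6, which held entries for 8 of the 10 genes, with none for Fgf1 or Fgfr1, and each runs from 250 bases before to 50 after the start, 5′ to 3′ on the gene's strand. Capitals mark matches to the GC box GGGCGG on either strand, which overlap each other in the second Fgfr3 region. The first Fgfr3 region is at chr5:33721474-33721773 (+), the second Fgfr3 region at chr5:33722056-33722355 (+) and the Fgfr2 region at chr7:130266759-130267058 (−).
Fgfr3, first start: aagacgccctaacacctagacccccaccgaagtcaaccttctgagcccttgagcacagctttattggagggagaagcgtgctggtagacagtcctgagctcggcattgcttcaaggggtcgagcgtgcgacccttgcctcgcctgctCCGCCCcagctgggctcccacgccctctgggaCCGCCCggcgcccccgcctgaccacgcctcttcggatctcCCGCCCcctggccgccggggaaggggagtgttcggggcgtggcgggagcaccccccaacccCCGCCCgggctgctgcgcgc
Fgfr3, second start: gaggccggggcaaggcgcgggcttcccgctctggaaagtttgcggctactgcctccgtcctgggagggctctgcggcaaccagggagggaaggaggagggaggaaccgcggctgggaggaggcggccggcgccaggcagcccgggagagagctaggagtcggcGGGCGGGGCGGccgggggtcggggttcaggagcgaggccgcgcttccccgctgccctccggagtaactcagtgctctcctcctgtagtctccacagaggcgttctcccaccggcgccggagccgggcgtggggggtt
Fgfr2: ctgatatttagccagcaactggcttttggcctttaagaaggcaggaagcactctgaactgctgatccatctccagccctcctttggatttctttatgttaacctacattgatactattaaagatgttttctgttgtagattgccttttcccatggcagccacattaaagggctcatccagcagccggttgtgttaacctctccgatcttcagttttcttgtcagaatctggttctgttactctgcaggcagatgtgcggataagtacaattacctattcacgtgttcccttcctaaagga

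The 2 Fgfr3 regions contained 69.7% and 73% G and C, with 4 and 2 matches to the GC box, against a median of 52.7% over 32851 promoters, of which 35.7% held the motif. The Fgfr2 region contained 43.7% G and C and no match. AGGTCA, the half-site bound by retinoid receptors, occurs in 16.3% of the promoters, a consensus NF-κB site in 0.155% and the ETS motif CCGGAAG in 8.86%, each searched on both strands, and none of the 3 regions holds any of these motifs. A match, or the lack of one, describes only the letters in this window.

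Fgfr3, the receptor that restrains chondrocyte proliferation, was lower with both treatments. On its brighter probe (ILMN_1257208), the untreated arrays measured 8.60 and 8.71 in batch 1 and 9.91 and 9.76 in batch 2. With IL-1α the values were 7.82 and 7.77 in batch 1 and 8.84 and 8.39 in batch 2. With retinoic acid they were 7.91 and 7.84 in batch 1 and 8.49 and 8.51 in batch 2. All 4 retinoic acid arrays lay below all 4 untreated arrays, and the IL-1α arrays lay below the untreated arrays of their own batch although the first batch 2 array with IL-1α was above both batch 1 untreated arrays. Means ± SD were 9.24 ± 0.68 untreated, 8.20 ± 0.51 with IL-1α and 8.19 ± 0.36 with retinoic acid (n = 4 each). Retinoic acid lowered Fgfr3 2.08-fold (−1.06 ± 0.14 SE on the log2 scale, adjusted p = 5.82e-05), with differences of −0.78 in batch 1 and −1.33 in batch 2. IL-1α lowered it 2.06-fold (−1.04 ± 0.14 SE, adjusted p = 1.25e-04), with −0.86 in batch 1 and −1.22 in batch 2. Retinoic acid and IL-1α differed by −0.01, with a 95% interval of −0.31 to 0.28, and this comparison did not pass the test (adjusted p = 0.953). The order of levels was thus untreated above both treatments, which were not separated from each other. In the exact permutation test of the treatment labels, the two-sided p was 0.0286 for retinoic acid, the smallest that 4 arrays against 4 can give, and 0.0857 for IL-1α. Without a batch term in the model neither difference passed (adjusted p = 0.0809 and 0.114).

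The second Fgfr3 probe (ILMN_2590766) was detected on all 6 arrays of batch 2 and on 0 of the 6 of batch 1. In batch 2 it measured 7.20 and 6.96 untreated, 5.97 and 5.62 with IL-1α and 5.77 and 5.32 with retinoic acid. Both treatments lay below untreated there, by −1.53 with retinoic acid and −1.28 with IL-1α, which is the direction of the brighter probe. Over both batches the differences were −0.86 with retinoic acid (adjusted p = 0.0116) and −0.71 with IL-1α (adjusted p = 0.0377). These values average in the arrays of batch 1, on which the probe was not detected and between which no fold is given. Leaving out untreated batch 2 replicate 1, untreated batch 2 replicate 2 or retinoic acid batch 2 replicate 2 ended the retinoic acid call, at −0.66, −0.62 and −0.69. The IL-1α call ended without untreated batch 2 replicate 1 or 2, IL-1α batch 2 replicate 1 or 2 or IL-1α batch 1 replicate 2, at −0.47 to −0.72.

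Fgfr2, which in skeletal tissue is known mainly from the perichondrium and osteoblasts, was lower with retinoic acid on its brightest probe (ILMN_1225071). This probe measured 11.44 and 11.01 in batch 1 and 10.98 and 11.65 in batch 2 on untreated arrays. Retinoic acid arrays measured 10.12 and 10.06 in batch 1 and 10.64 and 10.52 in batch 2. IL-1α arrays measured 10.33 and 10.37 in batch 1 and 11.10 and 11.12 in batch 2. Thus the retinoic acid arrays lay below all untreated arrays, whereas the IL-1α arrays of batch 2 fell between their untreated arrays. Means ± SD were 11.27 ± 0.33 untreated, 10.73 ± 0.44 with IL-1α and 10.33 ± 0.29 with retinoic acid (n = 4 each). The retinoic acid difference was −0.93 ± 0.17 SE (1.91-fold, adjusted p = 8.01e-04), with −1.14 in batch 1 and −0.73 in batch 2. The IL-1α difference was −0.54 ± 0.17 SE (1.45-fold, adjusted p = 0.0294), with −0.88 in batch 1 and −0.20 in batch 2. This call was lost within batch 2 alone (adjusted p = 0.579) and when any of 5 arrays was left out, namely any untreated array other than batch 2 replicate 1, or either IL-1α array of batch 1, at −0.38 to −0.52. Retinoic acid against IL-1α did not pass (−0.39, adjusted p = 0.0982), but did without IL-1α batch 1 replicate 1 (−0.52) or untreated batch 2 replicate 1 (−0.39).

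The other Fgfr2 probes did not all follow the brightest one. ILMN_2609887 measured 6.14, 6.78, 7.92 and 8.08 untreated, 7.04, 7.13, 8.04 and 7.60 with IL-1α and 5.77, 5.59, 7.42 and 7.22 with retinoic acid (batch 1 first). It was lower with retinoic acid than in untreated (−0.73, adjusted p = 0.0123) and than with IL-1α (−0.95, adjusted p = 0.00263), and did not pass for IL-1α against untreated (0.22, adjusted p = 0.437). ILMN_2646078 measured 5.25, 5.32, 5.44 and 5.06 untreated, 6.40, 6.47, 5.48 and 5.63 with IL-1α and 6.07, 6.47, 5.27 and 5.59 with retinoic acid. It was higher with both treatments, by 0.73 with IL-1α (adjusted p = 0.0113) and 0.58 with retinoic acid (adjusted p = 0.0270). Most of each difference came from batch 1 (1.15 and 0.99, against 0.30 and 0.18 in batch 2). Within batch 2 alone neither passed by limma (adjusted p = 0.334 and 0.555). In batch 1 the probe was detected on only 1 of the 2 untreated arrays, so that these differences start at the limit of detection. The retinoic acid call on ILMN_2609887 was lost without untreated batch 1 replicate 2, retinoic acid batch 1 replicate 2 or untreated batch 2 replicate 2 (−0.68, −0.55 and −0.59). On ILMN_2646078 the IL-1α call was lost without untreated batch 1 replicate 1 or 2 (0.63 and 0.57), and the retinoic acid call without any of 6 arrays, which were these 2, retinoic acid batch 1 replicates 1 and 2 and replicate 2 of untreated and retinoic acid in batch 2 (0.43 to 0.61). Thus 2 of the 3 Fgfr2 probes tested were lower with retinoic acid and 1 was higher, and for IL-1α the brightest and the dimmest probe moved in opposite directions. Averaged over its 3 probes, Fgfr2 was −0.36 with retinoic acid (adjusted p = 0.0192) and 0.14 with IL-1α (adjusted p = 0.365). Which transcripts each probe detects was not analysed here.

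Fgfr1, the receptor most broadly expressed in mesenchymal cells, did not pass the test with either treatment. Its brighter probe (ILMN_2727068) measured 6.76, 7.27, 7.50 and 7.03 untreated, 7.29, 7.34, 7.16 and 7.12 with IL-1α and 6.72, 7.25, 7.02 and 7.17 with retinoic acid. The 3 treatments overlapped throughout. The 95% interval of the difference from untreated was −0.41 to 0.21 for retinoic acid and −0.22 to 0.40 for IL-1α, so that changes inside these intervals are not excluded. The dimmer probe (ILMN_2675581) was detected on 5 arrays, all in batch 2, and gave 0.18 with retinoic acid (adjusted p = 0.438) and −0.01 with IL-1α (adjusted p = 0.980).

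**Figure D1:**
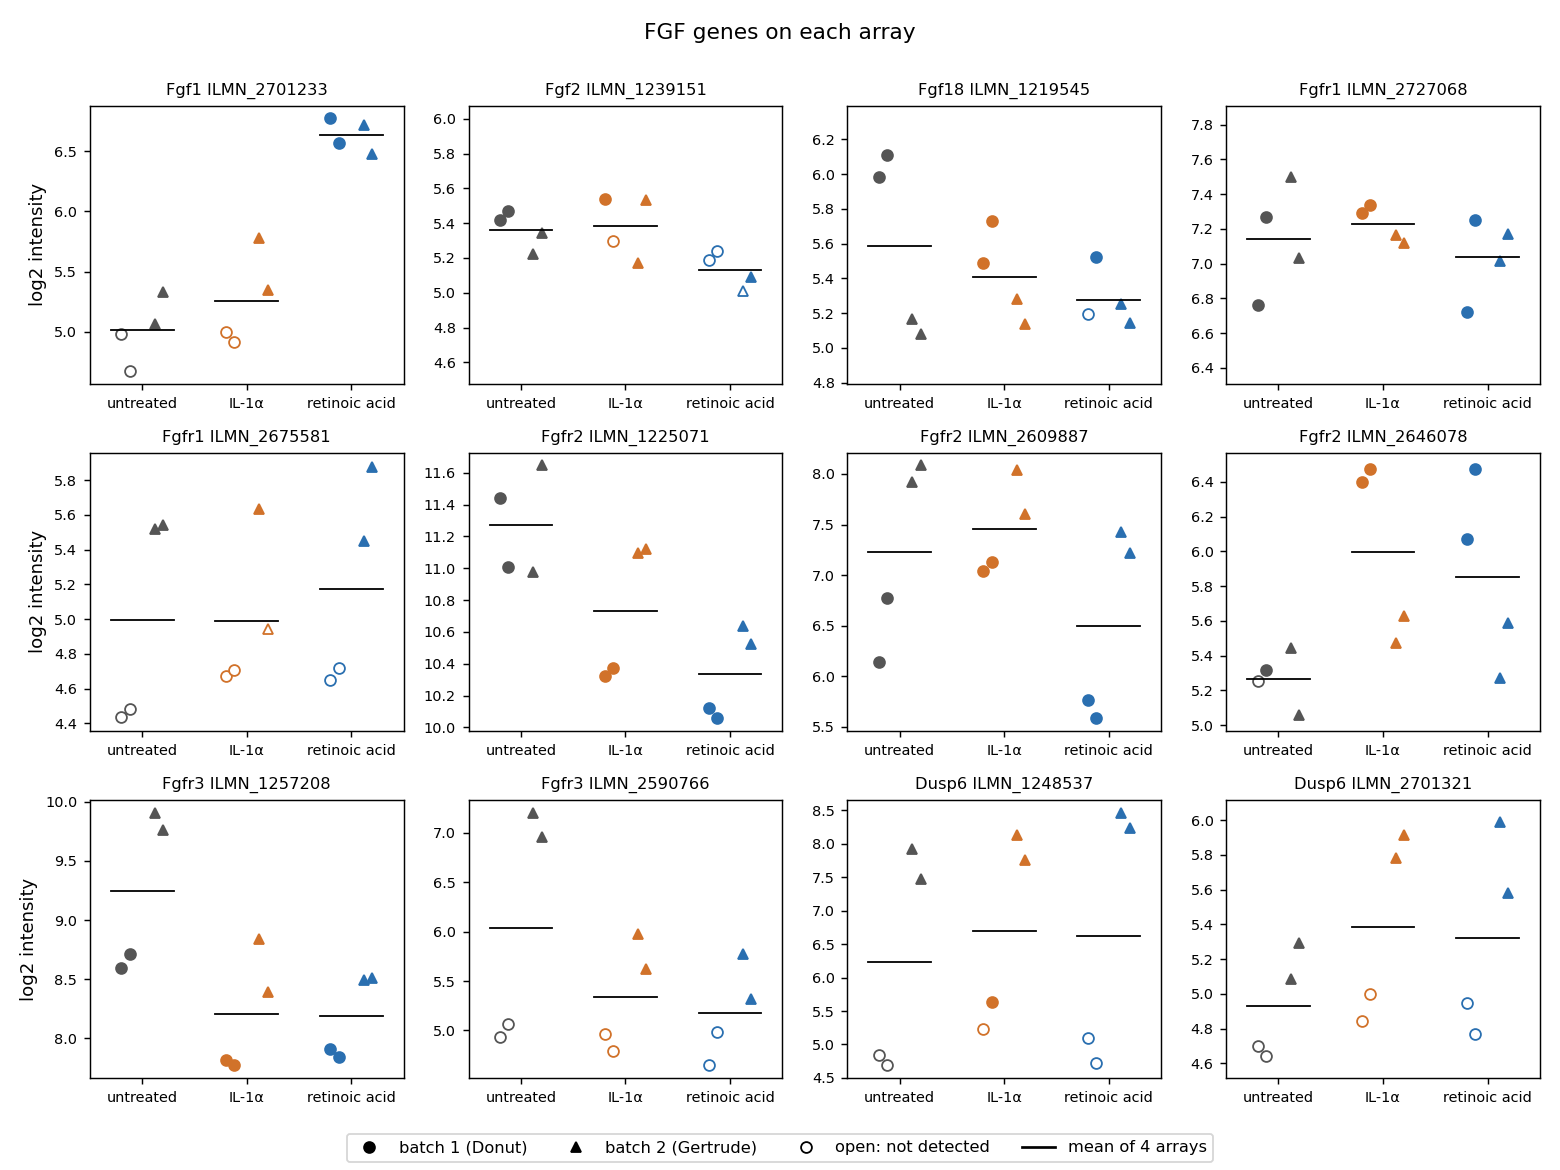
Log2 intensity (y axis, scale differs by panel) of the 12 FGF probes tested, by treatment (x axis). Each point is 1 array, circles are batch 1 and triangles batch 2, open symbols mark arrays on which the probe was not detected and the line is the mean of 4 arrays; the Fgf1 points with retinoic acid (6.48 to 6.78) lie above all other Fgf1 points, while Fgfr3 ILMN_1257208 lies highest in untreated arrays of each batch.

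Among the ligands, Fgf1, an FGF without a signal peptide that can bind all the FGF receptors, was higher with retinoic acid. Its probe (ILMN_2701233) measured 4.98 and 4.67 in batch 1 and 5.06 and 5.33 in batch 2 on untreated arrays. IL-1α arrays measured 5.00 and 4.91 in batch 1 and 5.78 and 5.34 in batch 2. Retinoic acid arrays measured 6.78 and 6.57 in batch 1 and 6.72 and 6.48 in batch 2. All 4 retinoic acid arrays stood above the 8 others, and the untreated and IL-1α arrays overlapped. Means ± SD were 5.01 ± 0.27 untreated, 5.26 ± 0.39 with IL-1α and 6.64 ± 0.14 with retinoic acid (n = 4 each). Retinoic acid exceeded untreated by 1.63 ± 0.16 SE (3.08-fold, adjusted p = 4.30e-06) and IL-1α by 1.38 ± 0.16 SE (adjusted p = 2.00e-05), and the exact two-sided permutation p was 0.0286 for both. The probe was detected on 4 of 4 retinoic acid arrays but on 2 of 4 untreated and 2 of 4 IL-1α arrays, those of batch 2. In batch 1, therefore, only a bound can be given, of at least 2.61-fold over untreated and at least 2.31-fold over IL-1α, and in batch 2 the differences were 1.41 and 1.04. The 3.08-fold over both batches averages in the undetected untreated arrays of batch 1 and is not a measured fold. IL-1α against untreated did not pass (0.25, 95% interval −0.10 to 0.59, adjusted p = 0.267). With a larger offset of 50 before the logarithm, the retinoic acid difference from untreated was 1.01 and still passed (adjusted p = 1.30e-05).

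Fgf2, which is stored in the pericellular matrix of cartilage and released on injury, was close to the limit of detection. It measured between 5.22 and 5.47 untreated, between 5.17 and 5.54 with IL-1α and between 5.01 and 5.24 with retinoic acid, and was detected on 4, 3 and 1 of the 4 arrays. All 4 retinoic acid arrays were below the untreated array of the same batch and replicate number, but the difference did not pass (−0.23, 95% interval −0.47 to 0.01, adjusted p = 0.134), nor did IL-1α (0.02, adjusted p = 0.901). Fgf18 (ILMN_1219545) measured 5.98 and 6.11 in batch 1 and 5.17 and 5.08 in batch 2 untreated, 5.49, 5.73, 5.28 and 5.14 with IL-1α, and 5.19, 5.52, 5.25 and 5.15 with retinoic acid. Only in batch 1 were the untreated arrays the highest. Over both batches neither retinoic acid (−0.31, adjusted p = 0.137) nor IL-1α (−0.17, adjusted p = 0.418) passed, while within batch 1 retinoic acid gave −0.69 (adjusted p = 0.0103) and within batch 2 0.08 (adjusted p = 0.787). The difference between these batch effects did not pass its own test (0.76, adjusted p = 0.0895).

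Dusp6, a phosphatase that removes the activating phosphates from ERK, was separated by batch. Its brighter probe (ILMN_1248537) measured 4.84 and 4.69 in batch 1 and 7.92 and 7.48 in batch 2 on untreated arrays. With IL-1α it measured 5.23, 5.64, 8.14 and 7.76, and with retinoic acid 5.09, 4.72, 8.47 and 8.23. It was detected on all 6 arrays of batch 2 and on 1 of 6 in batch 1, so that most batch 1 values were not above background by the detection test. The difference between the batch means, 2.97 in these normalized values (adjusted p = 8.30e-11), is therefore not a measured fold. Within each batch and replicate number the treated arrays were above the untreated array in 4 of 4 cases with each treatment. The replicate numbers, however, do not clearly pair the arrays. In batch 1 the second retinoic acid array (4.72) lay below the first untreated array (4.84), neither being detected. Neither treatment passed on this probe (retinoic acid 0.40, adjusted p = 0.115, and IL-1α 0.46, adjusted p = 0.0795). The mean of both Dusp6 probes passed for both (0.40, adjusted p = 0.0368, and 0.46, adjusted p = 0.0233). Within single batches the brighter probe passed for retinoic acid in batch 2 (0.65, adjusted p = 0.0349) and for IL-1α in batch 1 (0.67, adjusted p = 0.0229), where it was detected on 1 of 4 untreated and IL-1α arrays. The dimmer probe (ILMN_2701321), detected on the 6 batch 2 arrays and on 0 of batch 1, passed for both (retinoic acid 0.39, adjusted p = 0.0464; IL-1α 0.45, adjusted p = 0.0292). In batch 2 it measured 5.08 and 5.29 untreated, 5.78 and 5.91 with IL-1α and 5.99 and 5.58 with retinoic acid, so that untreated arrays were lowest. The retinoic acid call was lost when any of 8 arrays was left out, all except untreated and IL-1α batch 1 replicate 1, retinoic acid batch 1 replicate 2 and IL-1α batch 2 replicate 2 (0.25 to 0.47). The IL-1α call was lost without IL-1α batch 1 replicate 2 or any untreated or IL-1α array of batch 2 (0.32 to 0.46). On the brighter probe the retinoic acid difference passed without retinoic acid batch 1 replicate 2 (0.60) or IL-1α batch 1 replicate 2 (0.40), and the IL-1α difference without retinoic acid batch 1 replicate 2 (0.47) or IL-1α batch 2 replicate 2 (0.58).

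**Figure D2:**
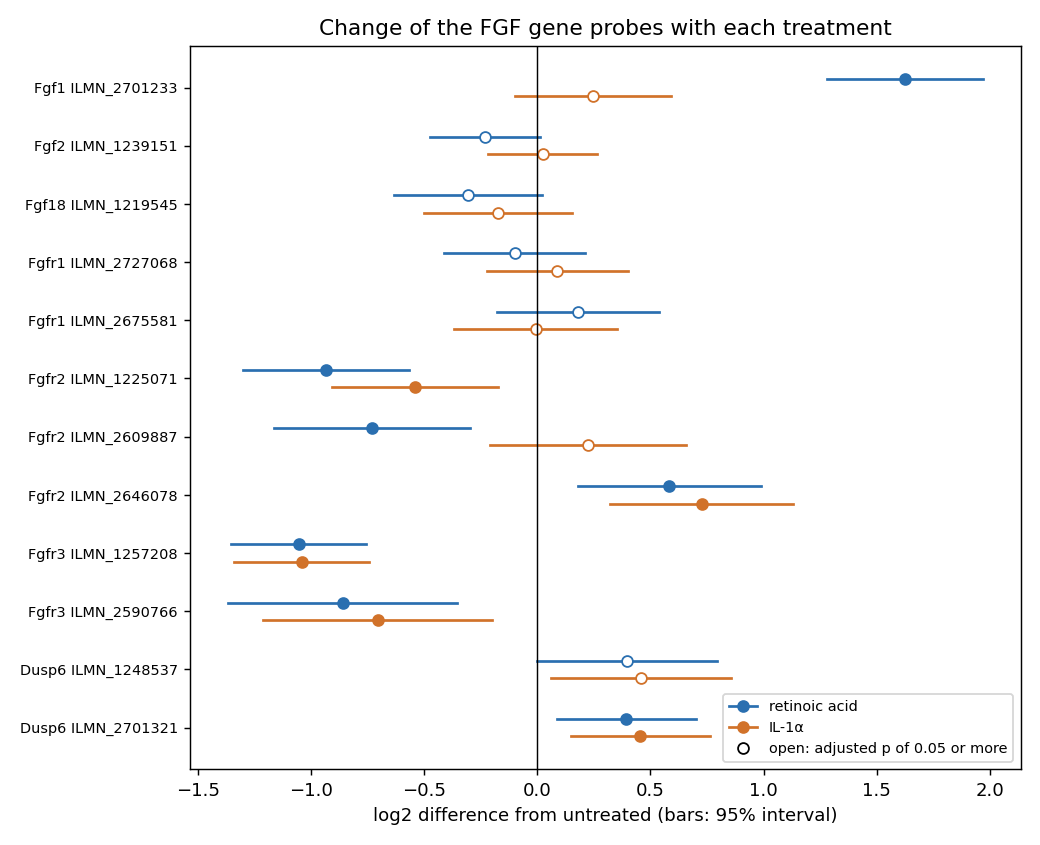
Log2 difference from untreated (x axis) for the 12 FGF probes tested (y axis), with 95% intervals from the limma model with a batch and replicate factor; filled points passed an adjusted p of 0.05. Fgf1 with retinoic acid stands at 1.63, the Fgfr3 probes lie to the left of 0 with both treatments, and the 3 Fgfr2 probes lie on both sides of 0.

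Counted over probes, 7 of the 12 tested passed for retinoic acid against untreated, 3 higher and 4 lower, where 35.4% of all 18200 probes tested passed (18.2% higher and 17.1% lower). For IL-1α against untreated 5 of the 12 passed, 2 higher and 3 lower, where 29.3% of all probes did (15.2% higher and 14.1% lower). For retinoic acid against IL-1α 2 of 12 passed, Fgf1 higher and Fgfr2 ILMN_2609887 lower, where 31.1% of all probes did (15.2% higher and 15.8% lower). The 4 arrays of a treatment did not overlap those of untreated for 3 probes with retinoic acid (16.9% of all probes) and 1 with IL-1α (13.5%). For retinoic acid against IL-1α it was 1 probe, Fgf1 (17.7%). The median difference from untreated over the 12 probes was −0.17 with retinoic acid and 0.06 with IL-1α, against 0.02 over all probes in both cases. The comparisons of the 2 treatments with untreated share the same 4 untreated arrays. Probes of 1 gene share their target and are not independent.

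**Figure D3:**
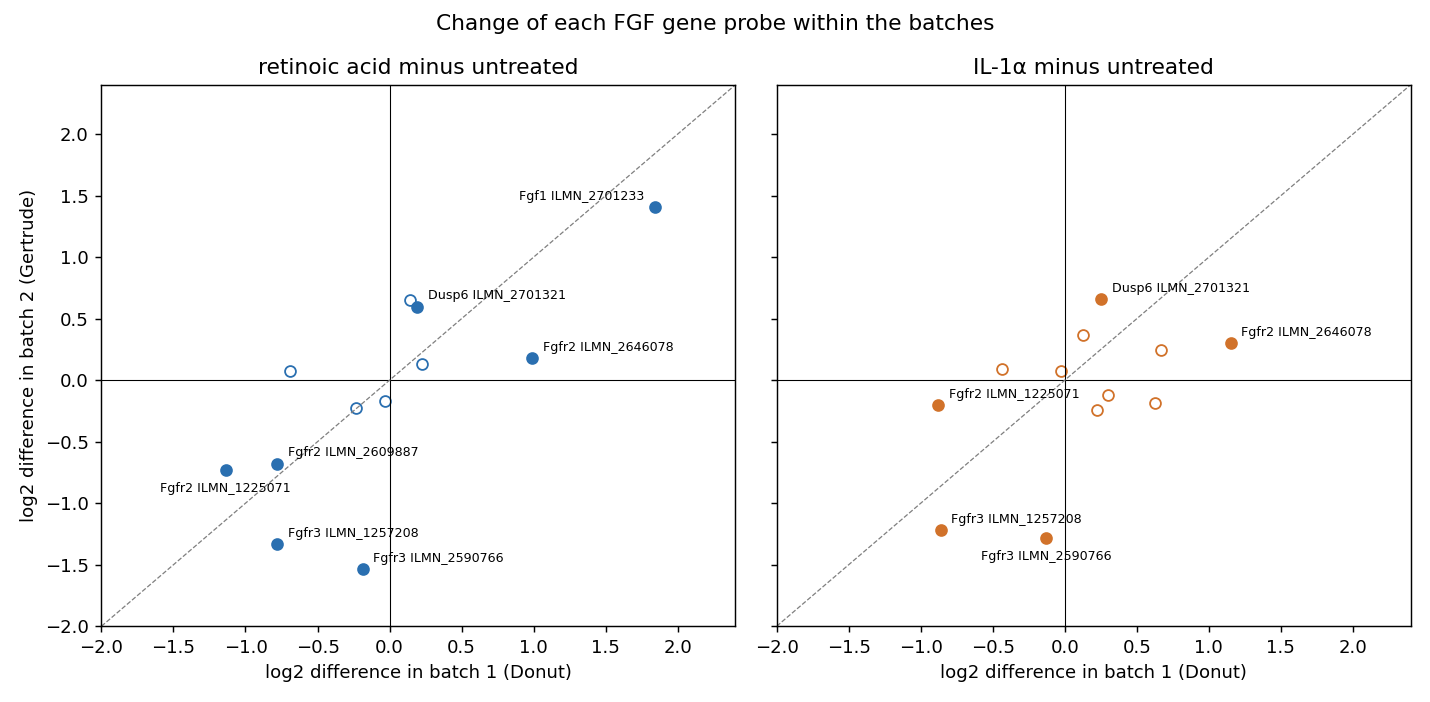
Log2 difference from untreated in batch 1 (Donut, x axis) against batch 2 (Gertrude, y axis) for the 12 FGF probes, with retinoic acid on the left and IL-1α on the right; filled, named points passed over both batches and the dashed line marks equal differences. Fgfr3 ILMN_1257208 lies below 0 in both batches with both treatments and Fgf1 above 0 in both with retinoic acid, while Fgfr3 ILMN_2590766 is far below the line (−0.19 and −1.53 with retinoic acid).

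The treatment effect differed between the batches for 1 of the 12 probes with retinoic acid (2.86% of all probes) and 1 with IL-1α (4.82%), in both cases the dim Fgfr3 probe. For retinoic acid against IL-1α it was 0 of 12 by limma (8.76% of all probes), with 3 at an unadjusted p under 0.05. Between the batches themselves 10 of the 12 probes differed, 8 of them higher in batch 2, where 76.3% of all probes differed, 33.4% being higher and 42.9% lower in batch 2. The brighter Fgfr3 probe was higher by 0.87 in batch 2 (adjusted p = 2.85e-06), Fgfr2 ILMN_2609887 by 1.31 (adjusted p = 1.57e-06), and Fgf18 lower by −0.49 (adjusted p = 0.00184). Fgf2 and the brighter Fgfr1 probe did not pass between batches (adjusted p = 0.213 and 0.675).

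Markers of the cells in the explant moved in the same comparisons, in which many probes passed. Over all probes tested, 18.2% were higher and 17.1% lower with retinoic acid, and 15.2% higher and 14.1% lower with IL-1α. Of 10 chondrocyte markers on the array, 8 were tested, and all 8 fell with retinoic acid and 6 with IL-1α, with medians of −2.86 and −1.01. Their summed intensity on the linear scale was 62451 to 73992 on untreated arrays, 35283 to 47086 with IL-1α and 10064 to 15334 with retinoic acid. Of 5 osteoblast markers tested, 4 fell with each treatment, their sum being 10044 to 12011 untreated, 2640 to 4906 with IL-1α and 2866 to 4300 with retinoic acid. Dmp1, which defines osteocytes, was detected on 0 arrays. Of 7 markers of macrophages or osteoclasts tested, 5 rose with retinoic acid, and 4 rose and 1 fell with IL-1α, with sums of 4280 to 6587 untreated, 9132 to 10163 with IL-1α and 7437 to 10450 with retinoic acid. In whole explants fewer cells of a type cannot be told apart from less RNA per cell, and the part of these shifts in the values for Fgfr3, Fgfr2 and Fgf1 was not tested. Of the 4 hypertrophic chondrocyte markers tested, 3 fell with each treatment, and of the 6 fibroblast or synovial markers, 5 fell with each and 1 rose with retinoic acid. Endothelial markers gave 1 higher of 6 tested with retinoic acid and 3 lower with IL-1α, and neutrophil markers 4 lower of 6 with retinoic acid and 0 of 6 with IL-1α. Both adipocyte markers tested fell with each treatment. Of 2 muscle markers tested, 1 fell with retinoic acid and 2 with IL-1α, with Ckm detected on 0 arrays, and 0 of 3 erythroid markers passed with either.

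The other genes of the pathway were taken from lists of ligands, co-receptors, signal transmission, feedback inhibitors, ERK-responsive genes and growth arrest genes. Of 66 such genes on the array, 35 had a probe that was tested, each gene being represented by its brightest probe. With retinoic acid 12 of the 35 rose, 6 fell and 17 did not pass, where 18.2% of all probes tested were higher and 17.1% lower. With IL-1α 8 rose, 5 fell and 22 did not pass, where 15.2% of all probes tested were higher and 14.1% lower. Of 18 other ligands only Fgf21, a metabolic hormone, was tested. It was lower with retinoic acid, undetected on all 4 arrays, and untreated arrays were at least 1.94-fold higher (adjusted p = 2.20e-04). It did not pass with IL-1α (0.39, adjusted p = 0.175).

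Of the 3 co-receptors and related proteins tested, Flrt2, from a membrane protein family that binds FGF receptors, rose by 2.47 with retinoic acid (adjusted p = 2.31e-06). It was detected on 4 of 4 retinoic acid, 2 of 4 untreated and 0 of 4 IL-1α arrays, so that its retinoic acid arrays alone met the detection filter. The 2.47 averages in untreated arrays without a measured level and is not a measured fold. Fgfrl1, a receptor without a kinase domain, fell with both treatments, by −0.98 with retinoic acid (adjusted p = 2.56e-05) and −0.44 with IL-1α (adjusted p = 0.0126). Of the 15 genes that carry the signal inside the cell, 2 rose and 3 fell with retinoic acid and 2 rose and 2 fell with IL-1α. The shares over all probes tested were 18.2% higher and 17.1% lower with retinoic acid, and 15.2% higher and 14.1% lower with IL-1α. Frs2, the adaptor that docks onto FGF receptors, fell by −0.73 with each treatment (adjusted p = 0.00356 with retinoic acid and 0.00506 with IL-1α), and its second probe passed in the same direction. The kinases Araf (−0.61) and Braf (−0.53) fell with retinoic acid on their brightest probes but did not pass on their others, and Map2k2, which encodes the ERK kinase MEK2, rose by 0.38 (adjusted p = 0.0229). Ptpn11, the phosphatase SHP2, rose by 0.95 with IL-1α (adjusted p = 9.90e-04) and 0.52 with retinoic acid, and its second probe passed with neither.

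Of the 6 other feedback inhibitors tested, 4 rose with retinoic acid and 2 with IL-1α, and none fell. Over all probes tested, 18.2% were higher and 17.1% lower with retinoic acid, and 15.2% higher and 14.1% lower with IL-1α. Dusp4 and Dusp5, nuclear phosphatases of MAP kinases, rose by 2.67 (adjusted p = 1.35e-05) and 1.78 (adjusted p = 3.42e-07) with retinoic acid, and Spry4, a relative of Spry2, by 0.79 (adjusted p = 0.00791). With IL-1α Dusp4 rose by 1.07 (adjusted p = 0.0159), with 1.98 in batch 1 and 0.17 in batch 2, and Dusp1 by 0.66 (adjusted p = 7.24e-04). Dusp1 also rose with retinoic acid, by 0.56 (adjusted p = 0.00137). The second Dusp4 probe tested (ILMN_2450767) passed with retinoic acid (1.71, adjusted p = 0.00159) and not with IL-1α (0.29, adjusted p = 0.559). Of the 7 ERK-responsive genes, 3 rose and 1 fell with each treatment. Egr1 rose by 1.44 with retinoic acid and 1.12 with IL-1α, Etv4 by 1.41 and 0.78, and Etv5 by 0.49 and 0.58. The Etv5 rises were larger in batch 1 (0.73 with retinoic acid and 0.98 with IL-1α) than in batch 2 (0.25 and 0.18). Etv4 was detected on only 2 of the 4 untreated arrays, so that its differences average in arrays without a measured level. Myc fell by −0.49 with retinoic acid and did not pass with IL-1α. It was detected on only 2 of the 4 retinoic acid arrays, so that this fall also averages in arrays without a measured level. Ccnd1, the cyclin of early cell cycle, fell by −1.12 with IL-1α (adjusted p = 3.41e-04) and gave −0.42 with retinoic acid (adjusted p = 0.0682). Of the 4 other Ccnd1 probes tested, ILMN_1225673 and ILMN_2669793 were lower with both treatments (−0.71 and −0.62 with retinoic acid, adjusted p = 0.0129 and 0.0200; −1.10 and −1.29 with IL-1α), and the other 2 passed with neither.

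Of the 3 growth arrest genes tested, 2 rose with retinoic acid (18.2% of all probes tested), while 1 rose (15.2%) and 1 fell (14.1%) with IL-1α. Cdkn1a, which encodes the cell cycle inhibitor p21, rose by 1.82 with IL-1α (adjusted p = 9.27e-05) and 0.75 with retinoic acid (adjusted p = 0.0224). Cdkn1c, which encodes the inhibitor p57, rose by 1.05 with retinoic acid (adjusted p = 2.95e-05) and fell by −0.78 with IL-1α (adjusted p = 6.00e-04). The 2 treatments differed directly for both, Cdkn1c being higher by 1.84 with retinoic acid than with IL-1α (adjusted p = 1.86e-07) and Cdkn1a lower by −1.07 (adjusted p = 0.00322).

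**Figure D4:**
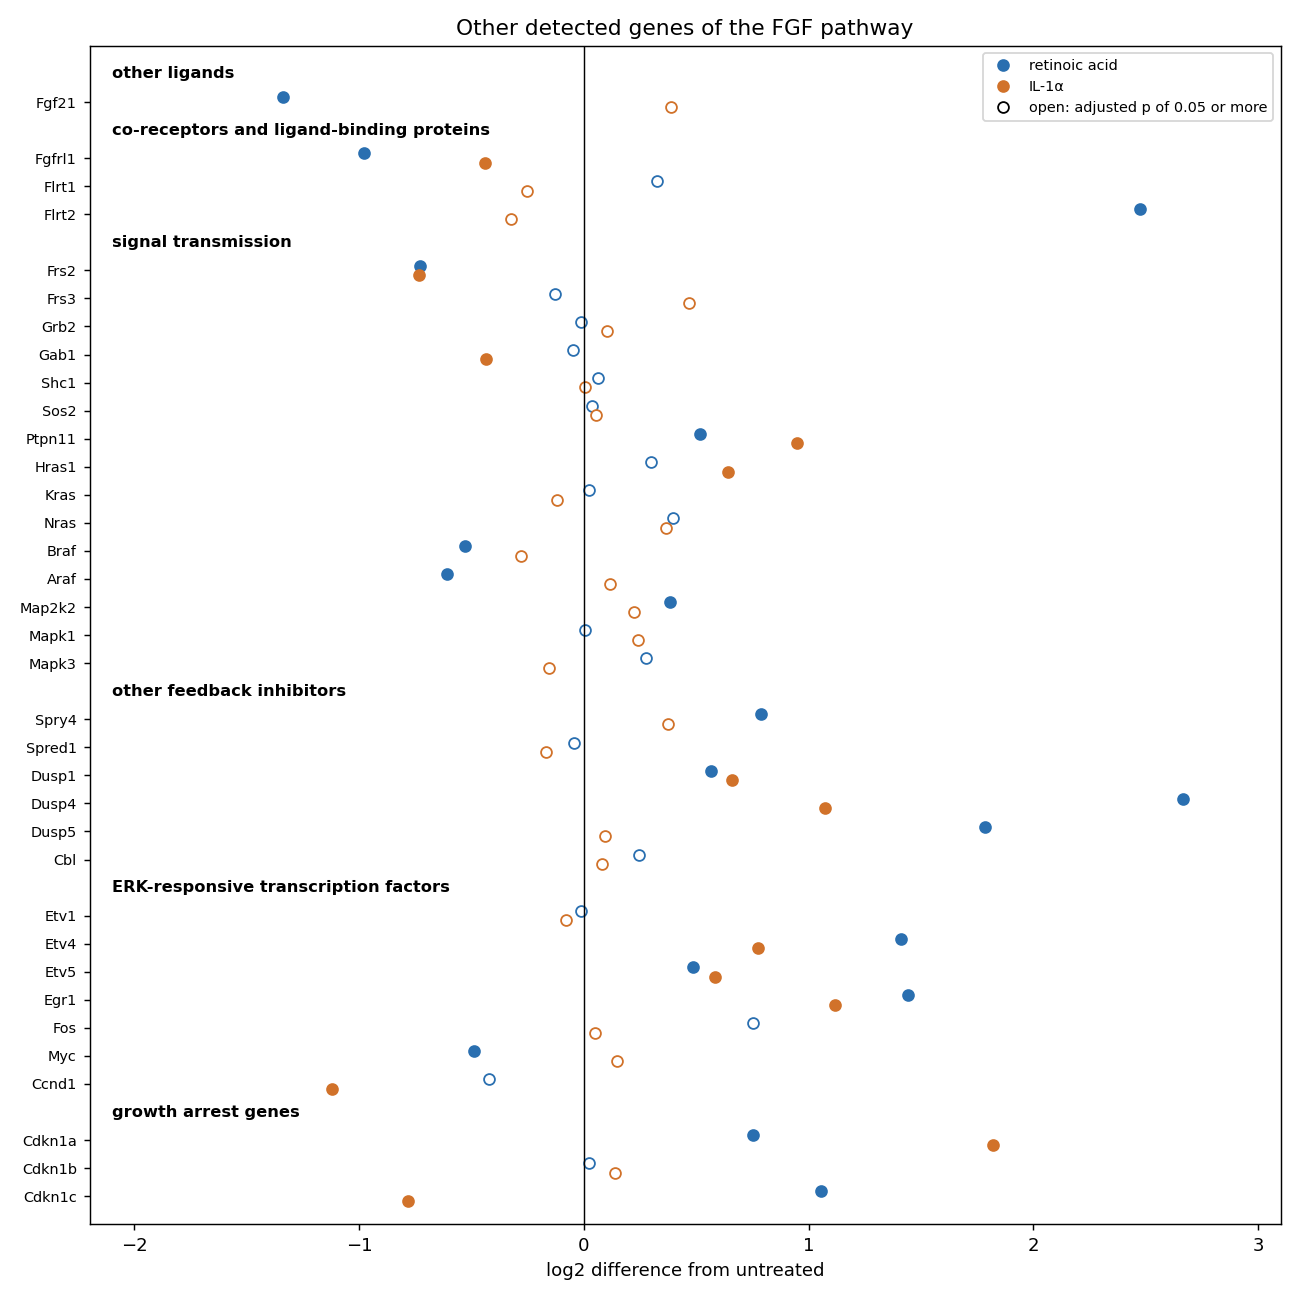
Log2 difference from untreated (x axis) of the 35 other FGF pathway genes tested (y axis, grouped by list), with retinoic acid in blue and IL-1α in orange; filled points passed an adjusted p of 0.05 over all probes. Dusp4, Flrt2 and Dusp5 lie farthest to the right with retinoic acid, and Cdkn1c lies on opposite sides of 0 with the 2 treatments.

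The genes with the pattern most like each member were listed by Pearson correlation over the 12 arrays after removing the mean of each batch, among 14316 symbols, as a description only, since all genes were read on the same arrays and follow the same treatments. Fgfr3 was followed most closely by Drp2 (0.980), Tox (0.979) and Rpl31 (0.972). Fgfr2 was followed by Myo1d (0.982) and Ccnd2 (0.974), and Fgf1 by the RIKEN transcripts A930023F05Rik (0.985) and A630076G18Rik (0.982). The closest genes to Dusp6 were Ptpn9 (0.949) and Zfp553 (0.948), and the closest to Fgfr1 was Lrsam1 (0.942).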

How the data were processed

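The authors deposited linear probe intensities of an Illumina bead array, neither background-corrected nor normalized, and a detection score per probe and array. The deposited score rises with intensity, so that 1 minus the score served as the detection p. The bead summary software is not given in the sources used here. R 4.3.3 and limma 3.58.1 were used: neqc (background from detection p, quantile normalization, offset 16, log2), keeping probes with detection p under 0.05 on at least 4 of 12 arrays, 18200 of 46632. The lmFit and eBayes model held treatment plus a 4-level factor of batch and replicate, after the study's methods. Differences between batches used treatment-by-batch groups, or treatment plus batch, without replicate. Adjusted p-values are Benjamini-Hochberg over all probes kept, at 0.05. Each listed gene is represented by its brightest probe, and the text names at most 3 per list, treatment and direction, by size of change. Dusp1 with retinoic acid is named beyond these, since it was named for IL-1α. Members and lists were chosen with earlier results of these data known. Some listed genes are not reported here. For a probe undetected in a group, a fold is a bound: the brighter mean against the dim group's mean, each dim array counting as its lowest detected signal unless the probe was brighter. Functions were tested on simulated data. Columns without a sample numbered 0. The number of arrays, 4 per treatment, limits the precision.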

Additional observations from a re-analysis of the deposited data

Results flagged for a closer look

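The dimmer Fgfr3 probe (ILMN_2590766) was flagged because the treatment effect differed between the batches. With retinoic acid the effect in batch 2 minus that in batch 1 was −1.35 (adjusted p = 0.0115 by limma), and with IL-1α it was −1.16 (adjusted p = 0.0236). Both comparisons use the same untreated arrays. The probe was detected on 0 of 6 arrays in batch 1 and on 6 of 6 in batch 2, so that the batch 1 effect has no measured level behind it. On the brighter Fgfr3 probe the corresponding values were −0.55 and −0.36 and did not pass (adjusted p = 0.262 and 0.388). In 36 groups of 4 arrays no array stood far from the other 3. Each group held 2 arrays of each batch, and a gap between batches widens the range against which an array was judged. The rate of about 1 in 20 flagged by chance assumes no such gap, so that no conclusion is drawn from the count of 0.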

How the results depend on the processing

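The calls for Fgf1 with retinoic acid, against untreated and against IL-1α, held under every alternative run in which its probe was tested. The run that kept only probes detected on every array left this probe out. The call for Fgfr2 ILMN_1225071 with retinoic acid against untreated held under every alternative run. The calls for Fgfr3 ILMN_1257208 held under all except the model of treatment only. Over single probes and alternatives, 716 values stayed on their side of the threshold, and 71 lost and 13 gained the call. Values without a call in either fit count among the 716 even where their direction changed. For example, Fgfr1 ILMN_2727068 with retinoic acid went from −0.10 to 0.04 in the mean of its probes. Among values with a call in either fit, 1 reversed: the mean of the 3 Fgfr2 probes gave 0.14 with IL-1α, against −0.54 on the brightest probe. The within-batch fits were chosen after seeing the data. The causes of these shifts were not tested.

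For retinoic acid against untreated, where 7 member probes passed, 3 passed without a filter on detection, 3 with detection on all 12 arrays, which leaves only 4 of the member probes, and 2 with treatment only. For IL-1α against untreated, where 5 passed, 3 passed with an offset of 50, 1 without the filter, 2 with detection on all 12 arrays, 3 with detection p under 0.01, 3 within batch 2 alone, and 0 by limma with treatment only (2 at an unadjusted p under 0.05). For retinoic acid against IL-1α, where 2 passed, 1 passed with detection on all 12 arrays, 1 with treatment only and 1 within batch 2 alone. Over all probes, treatment only gave 2215, 1327 and 1984 calls in these comparisons, against 6436, 5334 and 5656, and IL-1α within batch 2 alone gave 2700. Effects that differ between batches, 1, 1 and 0 member probes, became 2 for IL-1α against untreated and 2 for retinoic acid against IL-1α when arrays were scaled to one median. They became 0 for retinoic acid and 0 for IL-1α against untreated without the filter (4 and 5 at an unadjusted p under 0.05 by limma), and 0 and 0 with detection on all 12 arrays (1 and 2).

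Leaving out each array in turn gave 3 to 7, 2 to 6 and 2 to 3 member probes, 5243 to 6475, 3781 to 5509 and 4624 to 5824 of all probes, and 0 to 2, 0 to 3 and 0 to 2 member probes whose effects differ between batches. The lowest counts of member probes came without untreated batch 2 replicate 2, at 3 for retinoic acid and 2 for IL-1α, and 2 for IL-1α also came without IL-1α batch 1 replicate 2. Without untreated batch 1 replicate 2 or retinoic acid batch 2 replicate 2, 4 passed for retinoic acid. Without untreated batch 1 replicate 1 or 2, untreated batch 2 replicate 1 or IL-1α batch 2 replicate 1, 3 passed for IL-1α.

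The replicate block, used because the methods name it, changed little: without it, with treatment and batch, 7, 5 and 2 member probes passed, and 6752, 5702 and 5938 of all probes. Arrays of the same batch and replicate number deviated together with correlations of 0.06, 0.003 and 0.01 in batch 1 and 0.18, −0.11 and 0.39 in batch 2, so that the numbers do not clearly pair the arrays. Signal over background limits Fgf2, Fgf18, the dim probes of Fgfr1, Fgfr3 and Dusp6, and the dimmest Fgfr2 probe tested. In batch 1 it also limits Fgf1 and the brighter Dusp6 probe.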

Other observations

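The second Fgf18 probe (ILMN_2764004), which was not tested, reached 5.21 on the first retinoic acid array of batch 2, the only array on which it was detected, against 4.61 to 5.14 on the other 11. Spred2, a feedback inhibitor on no tested probe, was likewise detected on 1 array, of retinoic acid.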
